A study of Mus musculus with 11 samples.

Results

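The comparison described here sets 4 arrays of T-cell leukaemia cells treated with the compound AI-9-54 at 50 µM against 4 arrays treated with AI-8-45 at 100 µM. These 8 samples, of 11 in the series, were taken by their titles, and all 22180 genes with a single-symbol probe set were compared. The cells were line 720, a murine leukaemia of T-cell precursors (T-ALL). The line comes from a Tcf12+/- mouse that also carried a Tal1 transgene, expressed from the Lck promoter. All groups carry both alterations. Exposure lasted 8 h in both groups, and RNA was taken from live cells. The labels call the compounds Runt domain inhibitors and give only their codes. The other 3 arrays, treated with AI-7-54 at 100 µM, entered the model to estimate the spread, and their levels are given beside the others for scale. A vehicle control was not analysed here, and a gene called higher after AI-9-54 may have been raised by one compound or lowered by the other. Compound and dose cannot be told apart. The labels do not say whether replicates were separate cultures, so the p-values rest on a spread between arrays that may be only technical.

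RUNX proteins bind DNA through the Runt domain together with the partner CBFB and, in T-ALL driven by TAL1, occupy many enhancers with TAL1, GATA3 and E proteins. They act in thymocytes on lineage, receptor rearrangement and growth genes. Several of the genes below belong to the integrated stress response, in which kinases that sense amino acid shortage, unfolded protein or oxidative damage phosphorylate eIF2, translation of the transcription factor ATF4 increases, and ATF4 with its C/EBP partners raises genes of amino acid uptake, tRNA charging and glutathione supply. Others belong to the response driven by NRF2, which governs glutathione and quinone-detoxifying enzymes.

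All values are log2 signals of the deposited table, and a difference is the AI-9-54 mean minus the AI-8-45 mean on that scale. The arrays held comparable distributions (medians 6.61 to 6.68). Among the 8 arrays, the first principal component (31.5% of the variance) separated replicates 1 and 2 from replicates 3 and 4 in both groups. The second (24.8%) separated the compounds, with scores of 5.81 to 9.33 for AI-9-54 and -12.6 to -4.33 for AI-8-45, and on the third (14.4%) AI-8-45 replicates 3 and 1 lay at opposite ends, at 11.3 and -9.88. The 6 measured T-lineage defining genes had a median level of 11.9, and limma called 3 of them lower after AI-9-54 (median difference -0.23). The lists of B-lineage (10 genes), myeloid (13), erythroid and megakaryocyte (5) and stromal and endothelial (12) markers had median levels of 6.22 to 7.38, and limma called none of their members.

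The model contained the compound and the replicate set (1 and 2, or 3 and 4). Genes with a limma p below 0.05 after Benjamini-Hochberg adjustment over all genes are referred to as called. Of 22180 genes, 816 were called (3.68%), 426 of them higher after AI-9-54 (1.92%) and 390 lower (1.76%). The differences were small. Their median size among called genes was 0.27, the median standard error over all genes was 0.053, and 9 called genes differed by 2-fold or more, 7 higher and 2 lower. Every called gene had the same sign in replicates 1 and 2 as in replicates 3 and 4. The calls came from a fit over both sets, so this follows largely from the selection and is no independent replication. The same applies to the counts of overlap that follow. The arrays of the compounds did not overlap for 557 of the 816 called genes (68.3%), compared with 6.67% of all genes. Within each replicate set they did not overlap, in the same direction, for 811 of the called genes, compared with 14% of all genes. The number of calls depended on the model: 290 genes were called with no replicate set in it, and all 290 were among the 816. A single array also moved it, to 476 calls without AI-8-45 replicate 1 and to 504 without AI-9-54 replicate 3. Of the 136 called genes named under the rule given with the processing, 58 were called with no replicate set, and 41 lost their call when at least 1 of the 11 arrays was left out. AI-9-54 replicate 3 ended 39 of these 41 calls, AI-7-54 replicate 1 ended 3, and the other arrays ended 12 to 29 each. Where such a gene is described, the number of the 11 runs that kept the call, or the arrays that ended it, is given. For called genes outside that rule the runs were not counted.

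**Figure D1:**
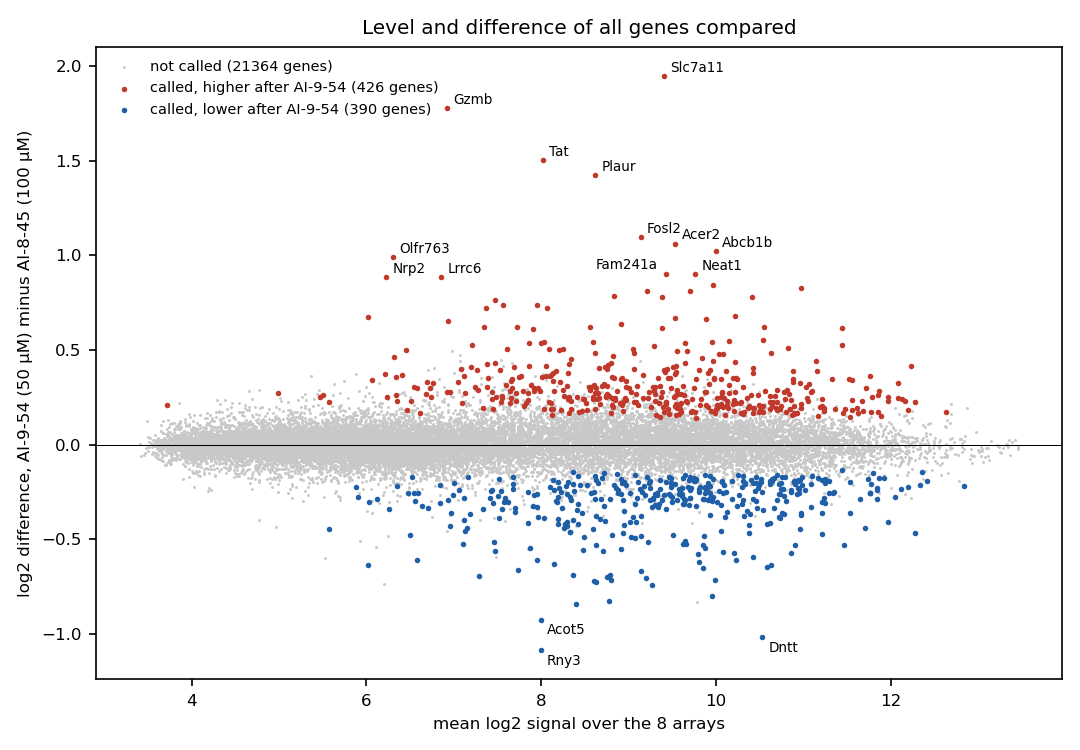
Difference between AI-9-54 and AI-8-45 (log2, vertical axis) against the mean log2 signal over the 8 arrays (horizontal axis) for 22180 genes, with called genes in red (426 higher after AI-9-54) and blue (390 lower) and names for called genes differing by at least 0.85. Slc7a11 and Gzmb lie highest, at 1.95 and 1.78, and most called genes lie within 0.5 of 0.

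The integrated stress response held the highest share of calls among the lists of 7 or more measured genes. Of its 27 measured members, 15 were higher after AI-9-54 and none lower, and the median difference was 0.28, where the median over all genes was 0.00. The factors came first: Ddit3, which encodes the stress factor CHOP, Atf5, Cebpg, Atf4 and Cebpb were all called higher, as was Eif2ak3, the gene of the eIF2 kinase PERK. The kinase genes Eif2ak1, Eif2ak2 and Eif2ak4 differed by 0.00, -0.02 and -0.05 and were not called, nor was the ATF4 partner gene Atf3 (-0.05). The differences of the called factors ran from 0.28 (Atf4 and Cebpb) to 0.85 (Ddit3). Of the effectors, 6 of 11 were higher, among them Chac1 and Herpud1. In RNA from bulk samples, a change in the mix of cells and a change in RNA per cell cannot be told apart.

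Ddit3 read 10.69, 10.74, 10.12 and 10.03 on AI-9-54 replicates 1 to 4 and 9.66, 9.61, 9.53 and 9.39 on the AI-8-45 replicates. The lowest AI-9-54 array lay above the highest AI-8-45 array, and the 3 AI-7-54 arrays lay lower still, at 9.07, 8.90 and 8.90. The means were 10.39 ± 0.37 and 9.55 ± 0.12 (SD, n = 4 each), a difference of 0.85 ± 0.087 (SE) with a limma adjusted p of 0.00026. Atf5, a stress-induced relative of ATF4, read 9.33, 9.38, 9.18 and 9.01 against 8.48, 8.41, 8.39 and 8.48, again with no overlap. Its difference was 0.79 ± 0.064 (limma adjusted p 6.08e-05). Trib3, a pseudokinase that damps ATF4 and AKT signalling, read 8.68, 8.80, 8.19 and 8.02 against 7.96, 7.89, 7.59 and 7.38, and its difference was 0.72 ± 0.080. Chac1, which degrades glutathione, showed both factors at once. It read 9.42, 9.39, 8.38 and 8.30 after AI-9-54 and 8.95, 8.83, 7.49 and 7.73 after AI-8-45, so that replicates 3 and 4 after AI-9-54 lay below replicates 1 and 2 after AI-8-45, while within each set AI-9-54 was higher. Its difference was 0.52 in replicates 1 and 2 and 0.72 in replicates 3 and 4 (limma adjusted p 0.000185, and 0.619 with no replicate set).

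That pattern held for the list as a whole. The mean over its 27 genes was 8.49 to 8.85 on the AI-8-45 arrays and 8.79 to 9.10 on the AI-9-54 arrays, which overlap, but within each set both AI-9-54 arrays lay above both AI-8-45 arrays. The median difference was 0.22 in replicates 1 and 2 and 0.31 in replicates 3 and 4. With no replicate set in the model, 4 of the 15 calls were made, and with single arrays left out the count ran from 12 to 15. Further called members were Sesn2, an inhibitor of the growth kinase mTORC1 (0.51 ± 0.053), the endoplasmic reticulum degradation factor gene Herpud1 (0.32 ± 0.050), the translational repressor gene Eif4ebp1 (0.29, kept in 6 of 11 runs) and the autophagy receptor gene Sqstm1 (0.25, kept in 6).

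**Figure D2:**
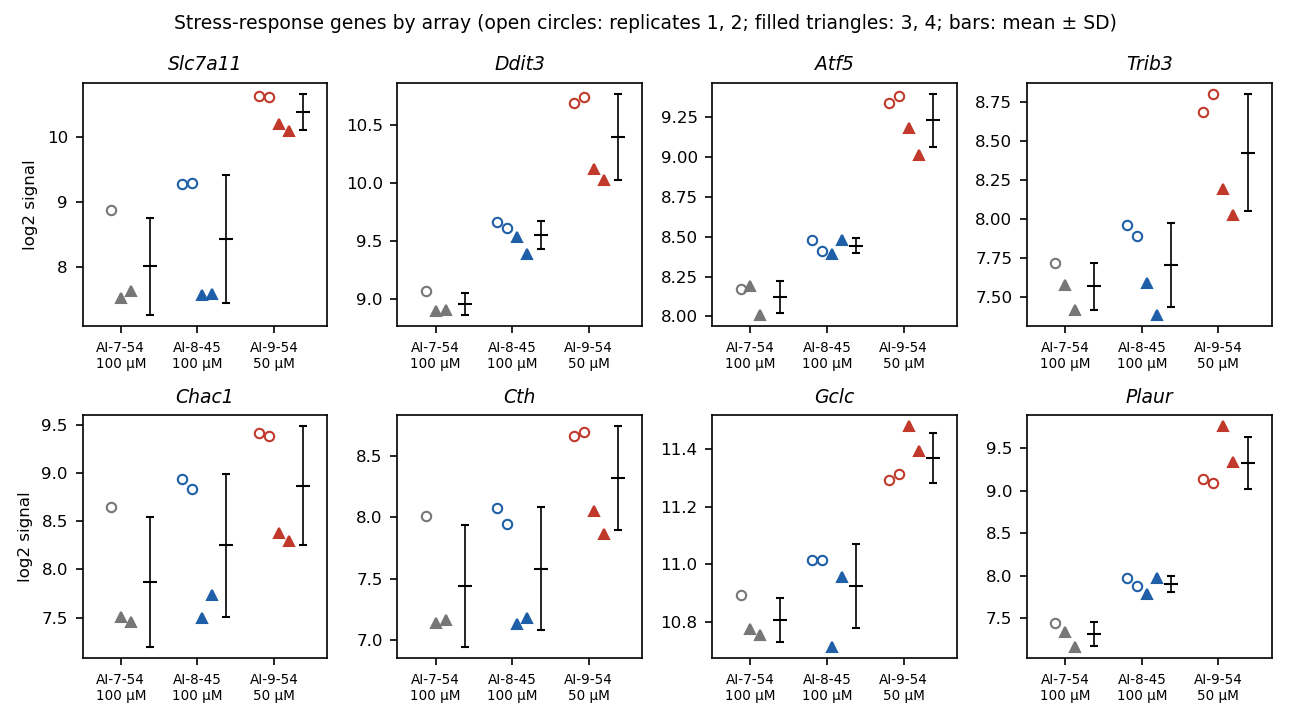
Log2 signal of 8 genes on every array by compound and dose, with replicates 1 and 2 as open circles, replicates 3 and 4 as filled triangles, and the mean ± SD beside each group. Ddit3, Atf5, Trib3, Slc7a11, Gclc and Plaur separate AI-9-54 from AI-8-45 on all arrays, whereas Chac1 and Cth do so only within each replicate set.

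Amino acid transporters, which ATF4 controls in part, were higher in 5 of 12 measured members and lower in none (median 0.16). Slc7a11, the cystine importer that feeds glutathione synthesis, had the largest difference of any gene. Its arrays read 10.62, 10.62, 10.19 and 10.10 after AI-9-54 and 9.28, 9.29, 7.57 and 7.59 after AI-8-45, with 8.88, 7.53 and 7.64 on AI-7-54 replicates 1, 3 and 4. AI-9-54 was therefore high on all 4 arrays, while after AI-8-45 replicates 1 and 2 were intermediate and replicates 3 and 4 lay within the range of AI-7-54 replicates 3 and 4. Over both sets the difference was 1.95 ± 0.19, a 3.87-fold higher level (limma adjusted p 0.00017). It was 1.34 in replicates 1 and 2 and 2.56 in replicates 3 and 4, and the interaction of compound and set was called (1.22, limma adjusted p 0.00145). A second, dimmer probe set of the gene differed by only 0.12. Slc3a2, the heavy chain that pairs with SLC7A11, read 12.55, 12.59, 12.34 and 12.27 against 12.22, 12.21, 11.81 and 11.85 without overlap, a difference of 0.41 ± 0.040. The cationic transporter gene Slc7a3 (0.61 ± 0.064) and the neutral transporter gene Slc1a4 (0.49 ± 0.049) overlapped between compounds but not within sets, and neither was called with no replicate set. Cth, which makes cysteine by transsulfuration, read 8.66, 8.70, 8.05 and 7.86 against 8.08, 7.94, 7.13 and 7.18. Its replicates 1 and 2 after AI-8-45 lay at the level of replicates 3 and 4 after AI-9-54, and the difference was 0.67 in the first set and 0.81 in the second (0.74 ± 0.053, limma adjusted p 2.57e-05, and 0.288 with no replicate set).

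Genes of serine, one-carbon and asparagine synthesis split. Of 14 measured, 3 were higher and 2 lower (median 0.10). The asparagine synthetase gene Asns (0.29 ± 0.052) and the mitochondrial gluconeogenic gene Pck2 (0.25, kept in 7 of 11 runs) were the other higher members beside Cth. The cytosolic folate enzyme genes Mthfd1 (-0.32 ± 0.039) and Shmt1 (-0.28 ± 0.045) were lower, and their arrays did not overlap. Of 17 cytosolic aminoacyl-tRNA synthetases, which charge tRNAs with amino acids, 6 were higher and none lower (median 0.15). They were Cars (0.46 ± 0.071), Sars (0.36 ± 0.060), Eprs (0.35 ± 0.059), Yars (0.28, kept in 7 of 11 runs), Mars1 (0.25) and Iars (0.23). With single arrays left out the count ran from 3 (without AI-9-54 replicate 4) to 6, and with no replicate set it was 0. The runs that kept the calls of Mars1 and Iars were not counted.

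Promoter windows of genes from these lists are shown because they include called genes and ATF4 with a C/EBP partner is known to bind the composite element TGATGNAA. The windows are RefSeq sequence of GRCm38.p6, 250 bases before to 25 bases after the annotated start, 5′ to 3′ on the gene's strand, with matches to TGATGNAA on either strand in capitals. Slc7a11 (chr3:50443589-50443863, minus strand) holds 2 matches, beginning 66 and 47 bases before the start. Chac1 (chr2:119350992-119351266, plus strand) holds 1, beginning 193 bases before it. Trib3 (chr2:152344036-152344310, minus strand) holds 1, beginning 14 bases after it.
Slc7a11: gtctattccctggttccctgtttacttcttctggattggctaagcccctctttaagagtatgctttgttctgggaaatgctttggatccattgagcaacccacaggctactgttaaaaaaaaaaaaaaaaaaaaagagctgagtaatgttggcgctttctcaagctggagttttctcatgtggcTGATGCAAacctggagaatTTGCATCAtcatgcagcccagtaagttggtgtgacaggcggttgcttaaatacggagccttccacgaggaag
Chac1: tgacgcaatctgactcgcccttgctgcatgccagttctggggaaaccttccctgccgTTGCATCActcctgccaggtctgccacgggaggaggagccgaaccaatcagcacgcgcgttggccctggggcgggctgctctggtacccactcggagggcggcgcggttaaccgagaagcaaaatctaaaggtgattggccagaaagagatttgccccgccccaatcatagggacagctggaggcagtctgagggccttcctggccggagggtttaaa
Trib3: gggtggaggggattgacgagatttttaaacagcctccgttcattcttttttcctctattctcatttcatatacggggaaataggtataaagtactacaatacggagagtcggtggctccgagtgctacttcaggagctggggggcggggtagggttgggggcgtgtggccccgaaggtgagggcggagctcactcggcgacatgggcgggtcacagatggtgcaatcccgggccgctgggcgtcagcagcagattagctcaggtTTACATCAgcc
Shorter stretches of 38 bases show the element, on either strand, in 4 further called genes: Slc1a4 (chr11:20332695-20332732, minus strand), Herpud1 (chr8:94386302-94386339, plus strand), Iars (chr13:49682122-49682159, plus strand) and Yars (chr4:129189891-129189928, plus strand).
Slc1a4: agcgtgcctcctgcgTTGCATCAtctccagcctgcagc
Herpud1: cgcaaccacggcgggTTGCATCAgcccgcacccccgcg
Iars: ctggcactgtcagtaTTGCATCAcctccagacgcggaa
Yars: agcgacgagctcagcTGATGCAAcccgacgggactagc
In windows running to 50 bases after the start, TGATGNAA occurred in 590 of 16990 genes with a RefSeq promoter (3.47%). It occurred in 16 of 331 genes called higher (4.83%) and in 1 of 274 called lower (0.365%). Among measured members it occurred in 6 of 24 integrated stress response genes, 2 of 8 amino acid transporters and 4 of 11 synthetases with a promoter entry. Among members called higher it occurred in 3 of 14, 2 of 3 and 2 of 5, so for the stress response the share was no larger among the calls. The stretches shown were picked from called genes that hold a match. The motifs were searched separately, and matches to different motifs may share bases. A match describes these letters and is no evidence of binding.

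Oxidative response genes were higher in 9 of 29 measured members and lower in 1 (median 0.14). On the list's mean, every AI-9-54 array (9.40 to 9.55) lay above every AI-8-45 array (9.19 to 9.32). Gclc, the catalytic subunit of the enzyme that starts glutathione synthesis, read 11.29, 11.31, 11.48 and 11.39 after AI-9-54 and 11.02, 11.02, 10.71 and 10.96 after AI-8-45. The groups did not overlap, and AI-8-45 replicate 3 was the lowest array. The difference was 0.44 ± 0.069 (limma adjusted p 0.00436), and the modifier subunit gene Gclm differed by 0.33. Nqo1, a quinone reductase, read 9.05, 9.22, 10.21 and 9.98 against 8.59, 8.41, 9.01 and 9.20. Here replicates 3 and 4 were the higher set for both compounds, opposite to Slc7a11 and Chac1, and the difference was 0.64 and 0.99 within the sets (0.81 ± 0.11 over both, limma adjusted p 0.00155). The haem oxygenase gene Hmox1 (0.61 ± 0.089), the thioredoxin reductase gene Txnrd1 (0.39) and the glutathione-conjugate exporter gene Abcc1 (0.35 ± 0.063) were also higher. The glutathione peroxidase gene Gpx1 was lower (-0.31 ± 0.053) with no overlap. The regulator genes Nfe2l2 (which encodes NRF2) and Keap1 both differed by 0.14 and were not called. Of the 7 measured regulators, 1 was called higher, Nfe2l1. The list holds Slc7a11, which is also an ATF4 target, and 5 of its 9 higher calls were made with no replicate set.

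Endoplasmic reticulum genes divided by role. Of 4 stress sensors, 3 were higher, Ern1 (0.31 ± 0.049), Eif2ak3 (0.30 ± 0.049) and Atf6 (0.19). Of 19 chaperones and degradation factors, 2 were higher, Herpud1 and Sel1l (0.20, kept in 2 of 11 runs). The major chaperone gene Hspa5 differed by -0.04 and was not called. None of 17 heat shock genes was called by limma, and their median difference was 0.00. The metallothionein genes Mt2 and Mt1, whose products bind zinc and copper, were higher, Mt2 by 0.48 ± 0.050 (11.03, 10.89, 10.82 and 10.76 against 10.45, 10.39, 10.33 and 10.39) and Mt1 by 0.35 ± 0.055. The zinc importer gene Slc39a10 was lower (-0.25, kept in 5 of 11 runs).

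**Figure D3:**
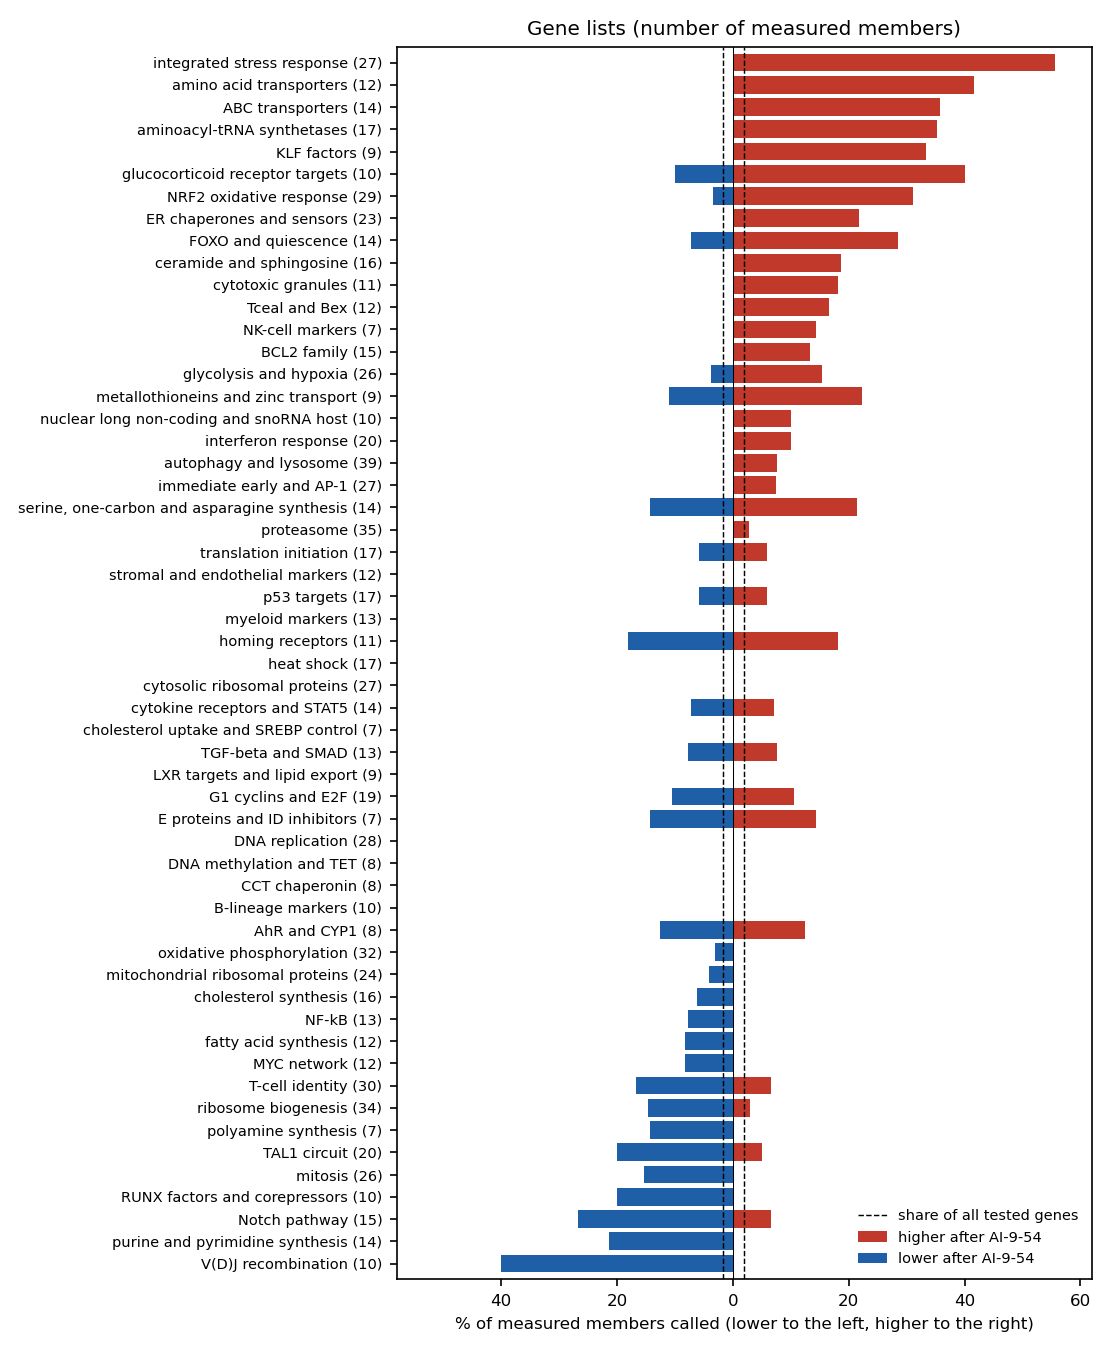
Percentage of the measured members of each list called higher (red, to the right) or lower (blue, to the left) after AI-9-54 relative to AI-8-45, for lists with at least 7 measured genes, whose number stands in brackets. Dashed lines mark the shares over all 22180 genes (1.92% higher, 1.76% lower). The integrated stress response has the longest red bar (15 of 27) and V(D)J recombination the longest blue bar (4 of 10).

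Several of the largest increases lay outside the stress lists. Plaur, the urokinase receptor, read 9.13, 9.09, 9.76 and 9.33 after AI-9-54 and 7.98, 7.88, 7.78 and 7.98 after AI-8-45. All AI-9-54 arrays were higher by more than 1, and the AI-7-54 arrays were lowest at 7.44, 7.34 and 7.16. The difference was 1.42 ± 0.12, or 2.68-fold (limma adjusted p 8.69e-05). It was the only called gene of the 5 measured in the urokinase system, where the ligand gene Plau differed by -0.03. Gzmb, the cytotoxic protease granzyme B, was dim after AI-8-45 (5.67, 5.42, 6.41 and 6.61) and read 6.81, 6.93, 8.75 and 8.75 after AI-9-54. The groups did not overlap, replicates 3 and 4 were higher than replicates 1 and 2 for both compounds, and the difference was 1.78 ± 0.21 (limma adjusted p 0.000608, and 0.0816 with no replicate set). Of 10 other cytotoxic granule genes, only the granzyme inhibitor gene Serpinb9 was called (0.38, kept in 3 of 11 runs). The perforin gene Prf1 differed by 0.02. The 7 natural killer cell markers had list means of 6.33 to 6.43 after AI-9-54 and 6.31 to 6.48 after AI-8-45, with 1 call, the dim gene Klrd1 (0.25, kept in 6 of 11 runs). The part of such cells in the Gzmb difference was not tested.

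The promoter window of Gzmb (chr14:56262310-56262584, minus strand, GRCm38.p6) is shown because this gene had the second largest difference and its window holds letters matching a RUNX site, TGTGGT, and an AP-1 site, TGANTCA, both searched on either strand and given in capitals.
Gzmb: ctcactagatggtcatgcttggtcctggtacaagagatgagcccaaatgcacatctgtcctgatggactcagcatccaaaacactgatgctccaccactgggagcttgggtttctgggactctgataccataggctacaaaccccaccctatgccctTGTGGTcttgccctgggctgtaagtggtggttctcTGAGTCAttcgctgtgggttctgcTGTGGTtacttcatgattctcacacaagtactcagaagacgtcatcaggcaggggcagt
Matches to TGTGGT began 93 and 34 bases before the start, and the match to TGANTCA began 58 bases before it. TGTGGT occurred in 14.6% of all promoters, in 14.2% of those of genes called higher and in 14.2% of those of genes called lower, and TGANTCA in 7.39%, 6.34% and 5.47%. The shares for genes called in either direction were thus close to those of all promoters for TGTGGT. Other motifs searched are not marked in any window. In the same order, TGACGT (CREB and ATF) gave 9.02%, 14.5% and 9.12%, and TGACNNNGC (antioxidant response) 13.3%, 16.6% and 12.8%. CACGTG (MYC) gave 8.18%, 9.37% and 9.12%, and CAGCTG (TAL1 and E proteins) 15.8%, 16% and 16.1%. Differences between these shares were not tested.

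Fosl2, an AP-1 subunit, read 9.39, 9.35, 10.09 and 9.92 against 8.56, 8.51, 8.66 and 8.63, a difference of 1.10 ± 0.11 (limma adjusted p 0.000191). Its arrays did not overlap. Of the other 26 measured immediate early and AP-1 genes, only the phosphatase gene Dusp1 was called (0.43 ± 0.066). Fos and Jun differed by -0.08 and -0.06. Of 9 Krüppel-like factor genes, 3 were higher: Klf6 (10.81, 10.86, 10.84 and 10.70 against 10.15, 9.98, 10.08 and 9.87, 0.78 ± 0.056), Klf7 (0.50 ± 0.050, with 0.09 for a second probe set) and Klf2 (0.27, kept in 2 of 11 runs). For Klf6 the AI-7-54 arrays (10.47, 10.40 and 10.32) lay between the other groups. Among glucocorticoid-responsive genes, 4 of 10 were higher and 1 lower. Tat, a tyrosine-degrading enzyme, had the largest difference of these (1.5 ± 0.27, limma adjusted p 0.00856) and the widest spread. It read 7.50, 7.76, 10.01 and 9.81 after AI-9-54 and 6.90, 6.79, 7.50 and 7.86 after AI-8-45, so that replicates 1 and 2 of AI-9-54 lay within the range of AI-8-45. The receptor gene Nr3c1 (0.35 ± 0.038) and the anti-inflammatory gene Tsc22d3 (0.41 ± 0.054) were higher, whereas Fkbp5, a cochaperone of the receptor, was lower (-0.19, kept in 7 of 11 runs).

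Of 14 measured ABC transporters, a family that includes drug efflux pumps, 5 were higher and none lower. Abcb1b, a multidrug pump, read 10.48, 10.62, 10.49 and 10.44 after AI-9-54, 9.59, 9.53, 9.30 and 9.50 after AI-8-45 and 8.54, 8.38 and 8.22 after AI-7-54. The 3 groups stood apart in that order, and the difference between AI-9-54 and AI-8-45 was 1.03 ± 0.058 (2.04-fold, limma adjusted p 1.68e-05). Its close relative Abcb1a differed by 0.74 ± 0.060, and Abcb4 by 0.30. These genes are similar in sequence, so probe sets may share signal. The mitochondrial transporter gene Abcb6 was also higher (0.31 ± 0.060). Acer2, a ceramidase of the Golgi, read 9.82, 9.81, 10.42 and 10.22 against 8.84, 8.88, 9.11 and 9.19 without overlap (1.06 ± 0.070). Of the other 15 ceramide and sphingosine genes, Asah1 (0.31, kept in 5 of 11 runs) and Sgpl1 (0.24, kept in 1) were called, and the list's count of 3 was 1 without any one of AI-8-45 replicates 2 and 3 and AI-9-54 replicates 2, 3 and 4. The nuclear paraspeckle RNA Neat1 was higher by 0.90 ± 0.096 and Arrdc3, an arrestin-like adaptor of membrane proteins, by 0.83 ± 0.062. Neither overlapped between groups. The uncharacterised gene Fam241a differed by 0.90 ± 0.10. The dim semaphorin receptor gene Nrp2 differed by 0.89 ± 0.11.

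Tceal1 and Bex6, related genes of the Tceal and Bex family, were the only 2 called among 12 measured. Tceal1 read 10.21, 10.32, 10.14 and 10.22 against 9.56, 9.51, 9.70 and 9.48, a difference of 0.66 ± 0.057, with AI-7-54 far lower at 7.58, 7.70 and 7.62. Bex6, dim in both groups, read 6.42, 6.53, 6.23 and 6.22 against 6.16, 5.94, 5.35 and 5.24 (0.68 ± 0.098). AI-7-54 was higher for this gene, at 8.89, 8.52 and 8.24.

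Among lower genes, those of V(D)J recombination stood out by their share of calls. Of 10 measured, 4 were lower and none higher, and the median difference was only -0.045. The list mean of every AI-9-54 array (9.29 to 9.39) lay below every AI-8-45 array (9.53 to 9.63). That mean includes the 4 called genes, so it is no separate result and shows no shift of the whole list. Dntt, the polymerase that adds untemplated bases at receptor gene joints, read 10.48, 10.41, 9.45 and 9.73 after AI-9-54, 11.31, 11.18, 10.76 and 10.90 after AI-8-45 and 11.63, 11.30 and 11.31 after AI-7-54. The groups did not overlap. Its difference of -1.02 ± 0.098, a 2.03-fold lower level (limma adjusted p 0.000177), was the largest decrease of any protein-coding gene named here. Rag2, a subunit of the recombinase, was dim and read 5.53, 6.03, 5.50 and 5.73 against 6.74, 6.52, 6.03 and 6.05. These groups met at AI-9-54 replicate 2 and AI-8-45 replicate 3 (-0.64 ± 0.11, limma adjusted p 0.00846). Of the end-joining genes, the ligase gene Lig4 (8.89, 9.0, 8.85 and 8.84 against 9.44, 9.40, 9.32 and 9.36, -0.48 ± 0.045) and Xrcc6, which encodes Ku70 (-0.41 ± 0.047), were lower without overlap. Their partners Xrcc4 and Xrcc5 differed by 0.01 and -0.01, and the kinase gene Prkdc by 0.05. The 4 calls were made in every run with 1 array left out, and 3 of them with no replicate set. Rag1 was not analysed here.

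**Figure D4:**
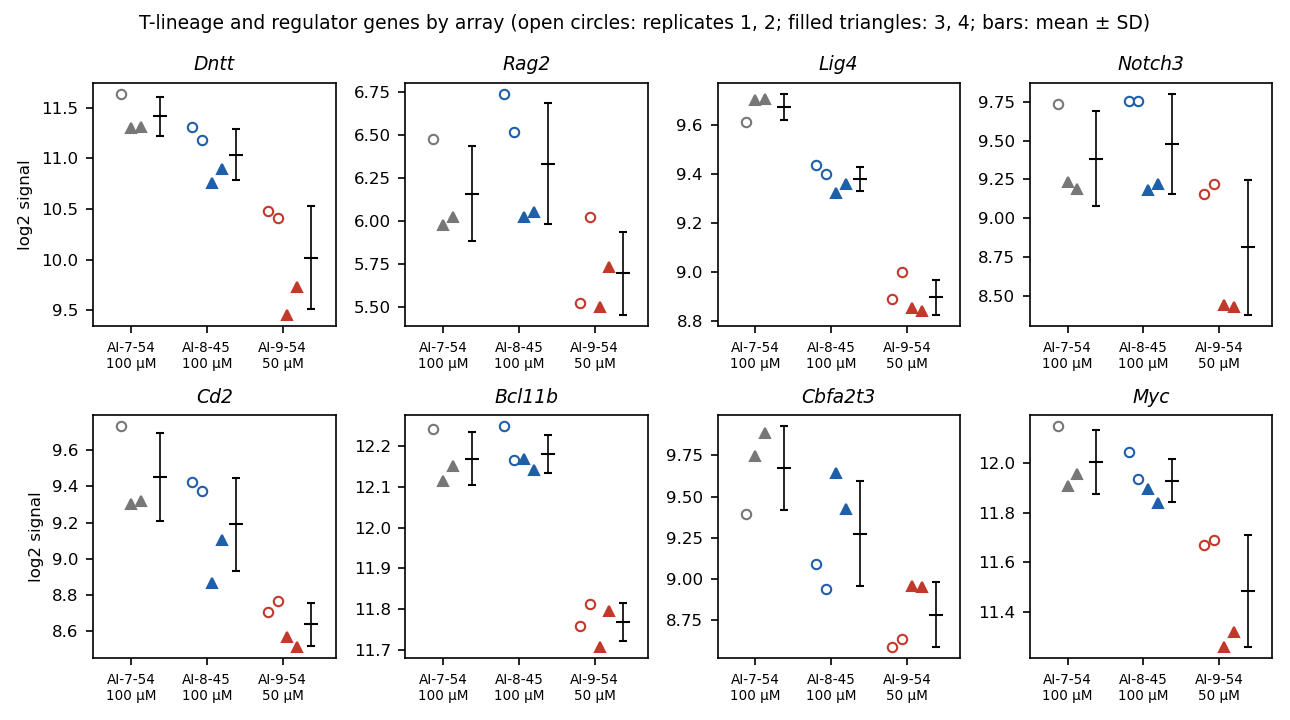
Log2 signal of 8 genes lower after AI-9-54 on every array by compound and dose, with replicates 1 and 2 as open circles, replicates 3 and 4 as filled triangles, and the mean ± SD beside each group. Dntt, Lig4, Cd2, Bcl11b and Myc separate AI-9-54 from AI-8-45 on all arrays, whereas Rag2, Notch3 and Cbfa2t3 overlap between replicate sets.

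Notch genes were lower in 4 of 15 measured members and higher in 1 (median -0.03). The receptor gene Notch3 read 9.16, 9.22, 8.44 and 8.43 against 9.76, 9.76, 9.18 and 9.22. AI-9-54 replicates 1 and 2 lay at the level of AI-8-45 replicates 3 and 4, and within the sets the difference was -0.57 and -0.77 (-0.67 ± 0.049 over both, limma adjusted p 2.57e-05, and 0.198 with no replicate set). Notch1 (-0.26 ± 0.047) and the Notch targets Nrarp (-0.29 ± 0.050) and Ptcra (-0.28, kept in 4 of 11 runs), the pre-T-cell receptor chain, were also lower. Hey1, a target repressor, went the other way at 0.78 ± 0.089 (9.82, 9.73, 9.84 and 9.71 against 9.11, 9.08, 8.72 and 9.08) without overlap. Hes1 and Dtx1, 2 other targets, differed by 0.12 and -0.03 and were not called.

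Of 30 measured T-cell identity genes, 5 were lower and 2 higher (median -0.03), and the lower count was 3 without any single one of 6 arrays (AI-8-45 replicates 1, 3 and 4, and AI-9-54 replicates 1, 2 and 3). Cd2, an adhesion receptor, read 8.71, 8.77, 8.57 and 8.51 against 9.42, 9.37, 8.87 and 9.10 (-0.55 ± 0.061). Bcl11b, the factor that fixes T-lineage commitment, read 11.76, 11.81, 11.71 and 11.80 against 12.25, 12.17, 12.17 and 12.14 (-0.41 ± 0.040, limma adjusted p 0.000173). Thy1, a surface glycoprotein, read 10.75, 10.88, 10.71 and 10.84 against 11.23, 11.08, 11.21 and 11.11 (-0.36 ± 0.050). None of these 3 genes overlapped between compounds. The CD3 chain genes Cd3d, Cd3e and Cd3g differed by -0.09, -0.03 and -0.06 and were not called. The chromatin organiser gene Satb1 (0.35 ± 0.057) and the costimulatory receptor gene Cd28 (0.24, kept in 2 of 11 runs) were higher. Elsewhere on the cell surface, the integrin gene Itgae was lower (-0.53 ± 0.039), as was the chemokine receptor gene Cxcr4 (-0.31 ± 0.038), while Ccr4 was higher (0.40, kept in 5 of 11 runs) and the interleukin 2 receptor gene Il2ra was higher (0.29 ± 0.046). The Src-family kinase gene Blk differed by -0.41 ± 0.080 with AI-7-54 higher than both at 10.09, 9.78 and 9.75, and its call was lost without AI-8-45 replicate 4 or AI-9-54 replicate 3.

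Of the regulators that define this leukaemia, some were called and others were not, where the share called over all genes was 3.68%. Of 10 RUNX factor and corepressor genes, 2 were lower: Runx1 (11.78, 11.77, 11.51 and 11.55 against 11.95, 11.94, 11.70 and 11.75, -0.18 ± 0.034, limma adjusted p 0.0119, and 0.444 with no replicate set) and Cbfa2t3, an ETO-family corepressor (8.59, 8.64, 8.96 and 8.95 against 9.09, 8.94, 9.64 and 9.42, -0.49 ± 0.061). In both genes the compounds overlapped on the whole but not within a set. Runx3 (0.16) and Cbfb (0.08) were not called, and Runx2 was not analysed here. Tal1 differed by -0.13 ± 0.058 (limma adjusted p 0.334), Tcf12 by -0.13, Myb by -0.13 and the dim gene Lmo2 by -0.04, none called. Of 20 genes of the TAL1 circuit, 4 were lower (Runx1, Gata3, Stat5a and Cdk6) and Arid5b higher. Among these, Stat5a (-0.24 ± 0.040) and Cdk6 (-0.22 ± 0.035) kept their calls in all 11 runs, Gata3 (-0.21) in 3 and Arid5b (0.21) in 2. Myc read 11.67, 11.69, 11.26 and 11.32 against 12.05, 11.93, 11.89 and 11.84, a 1.36-fold lower level (-0.44 ± 0.055, limma adjusted p 0.000897) with no overlap. It was the only call among 12 MYC network genes. Of the ID genes, whose products hold E proteins off DNA, Id2 was higher (0.25 ± 0.038) and Id3 lower (-0.38 ± 0.056).

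Calls among genes of growth and division were uneven over the lists, where 3.68% of all genes were called. Of 34 ribosome biogenesis genes, 5 were lower and 1 higher (median -0.09, with 4 of 34 above 0), led by Ppan (-0.34, kept in 6 of 11 runs), the nucleolar phosphoprotein gene Nolc1 (-0.26 ± 0.044) and Rrp12 (-0.23, lost without AI-8-45 replicate 1). The lower count was 1 without AI-8-45 replicate 1 and 8 without AI-8-45 replicate 3. It was 2 without AI-8-45 replicate 4 or AI-9-54 replicate 3, and 3 without AI-8-45 replicate 2 or AI-9-54 replicate 1 or 4. The spermidine synthase gene Srm differed by -0.30 ± 0.054. Of 14 nucleotide synthesis genes, Atic (-0.18, kept in 4 of 11 runs), Cad (-0.18, kept in 9) and Gart (-0.16, kept in 2) were lower. None of the 3 was called without AI-8-45 replicate 1 or without AI-9-54 replicate 3, and 1 was called without any one of AI-7-54 replicates 3 and 4, AI-8-45 replicates 2 and 4, and AI-9-54 replicate 1. Of 26 mitosis genes, 4 were lower and none higher (median -0.11), Plk1 (-0.26 ± 0.045), Cdc25c (-0.25 ± 0.043), Ube2c (-0.23 ± 0.044) and Ccnb2 (-0.18, kept in 4 of 11 runs), and the count was 9 without AI-8-45 replicate 3. None of 28 DNA replication genes and none of 27 cytosolic ribosomal protein genes was called by limma (medians 0.02 and -0.03). Among lipid genes, 1 of 16 cholesterol synthesis genes was called, Dhcr7 (-0.16, kept in 1 of 11 runs).

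Fuel and survival genes gave mixed counts. Of 26 glycolysis and hypoxia genes, 4 were higher and 1 lower. The hexokinase gene Hk2 (0.47 ± 0.078), the phosphofructokinase gene Pfkp (0.35 ± 0.057), Hif1a (0.30 ± 0.036) and Vegfa (0.37, lost without AI-9-54 replicate 3) were higher, and the oxygen sensor gene Egln3 was lower (-0.36 ± 0.046). Of 14 FOXO and quiescence genes, 4 were higher, among them Txnip (0.23 ± 0.041) and Foxo1 (0.28, kept in 8 of 11 runs, with -0.02 for a second probe set), and the higher count was 1 without AI-9-54 replicate 3 or 4 and 2 without AI-8-45 replicate 2. Sesn3 (0.21) lost its call without AI-9-54 replicate 3 or 4, and the antiproliferative gene Btg2 was lower (-0.34 ± 0.056). The death-promoting BCL2 family genes Bcl2l11, which encodes BIM (0.38 ± 0.049), and the dim Hrk (0.36 ± 0.064) were higher, and the other 13 measured members of that family were not called.

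Further calls came from other lists. The translation initiation helicase gene Eif4a1 differed by -0.47 ± 0.079, with -0.02 for a second probe set, and Hexa, a lysosomal hexosaminidase subunit gene, by 0.26 ± 0.048. Smad7, an inhibitor of TGF-beta signalling, was higher (0.41 ± 0.048), and the other call among the 13 measured genes of that pathway was Tgfb3, lower and given below. The mitochondrial genes Cycs (-0.19, cytochrome c) and Mrpl16 (-0.17) were lower and kept their calls in 5 and 4 of 11 runs, and they were the only calls among 32 oxidative phosphorylation and 24 mitochondrial ribosomal protein genes. Psmd1 (0.23) was the only call among 35 proteasome genes, and it was lost without AI-9-54 replicate 2, 3 or 4. The interferon-responsive genes Irf1 (0.23, kept in 4 of 11 runs) and the dim Isg15 (0.30, kept in 7) were the calls among 20 of their list. That count of 2 was 0 without AI-8-45 replicate 2 or AI-9-54 replicate 2 or 3, and 1 without AI-7-54 replicate 3, AI-8-45 replicate 1, 3 or 4, or AI-9-54 replicate 4. The cell-cycle genes Ccne1 (0.19), Ccnd3 (-0.24) and Rb1 (0.19) kept their calls in 4, 3 and 3 runs.

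The remaining largest decreases did not come from a single list. Acot5, a peroxisomal thioesterase, read 7.43, 7.64, 7.50 and 7.56 against 8.57, 8.36, 8.34 and 8.57 (-0.93 ± 0.079). The adhesion receptor gene Adgrg1 read 9.71, 9.73, 9.31 and 9.48 against 10.34, 10.31, 10.44 and 10.35 (-0.80 ± 0.077). Neither gene overlapped between compounds. Fstl4, Tgfb3, Elfn2, Cmklr1, Prss57, Clec11a and Trmt9b differed by -0.83, -0.73, -0.70, -0.69, -0.63, -0.62 and -0.61, and the dim Ms4a6b by -0.61. Nfkbie, an NF-kB inhibitor, differed by -0.57 ± 0.051 and was the only call among 13 NF-kB genes. The fatty acid binding protein gene Fabp5 differed by -0.53 ± 0.078, and its 4 probe sets ran from -0.56 to -0.25.

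The difference between the compounds was itself tested for dependence on the replicate set. Of 22180 genes, 3 (0.0135%) were called for this interaction, Slc7a11, Lrrc6 and Tnfrsf23. For Slc7a11 the difference was larger in replicates 3 and 4, as given above. Lrrc6, a gene of ciliary assembly and dim after AI-8-45, read 6.69, 6.87, 7.85 and 7.79 after AI-9-54 and 6.44, 6.44, 6.34 and 6.44 after AI-8-45, with differences of 0.34 and 1.43 in the first and the second set, and its call over both sets was kept in 7 of 11 runs. Tnfrsf23, a decoy death receptor gene, read 6.79, 6.82, 7.74 and 7.80 against 6.79, 6.86, 6.96 and 6.78. The compounds did not separate in replicates 1 and 2 (-0.02) and did in replicates 3 and 4 (0.91). Over all 816 called genes, the difference was larger in replicates 3 and 4 for 424. The count of interaction calls was 1 in 6 of the 11 runs with an array left out (without AI-8-45 replicate 1, 2 or 3, or AI-9-54 replicate 1, 3 or 4).

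**Figure D5:**
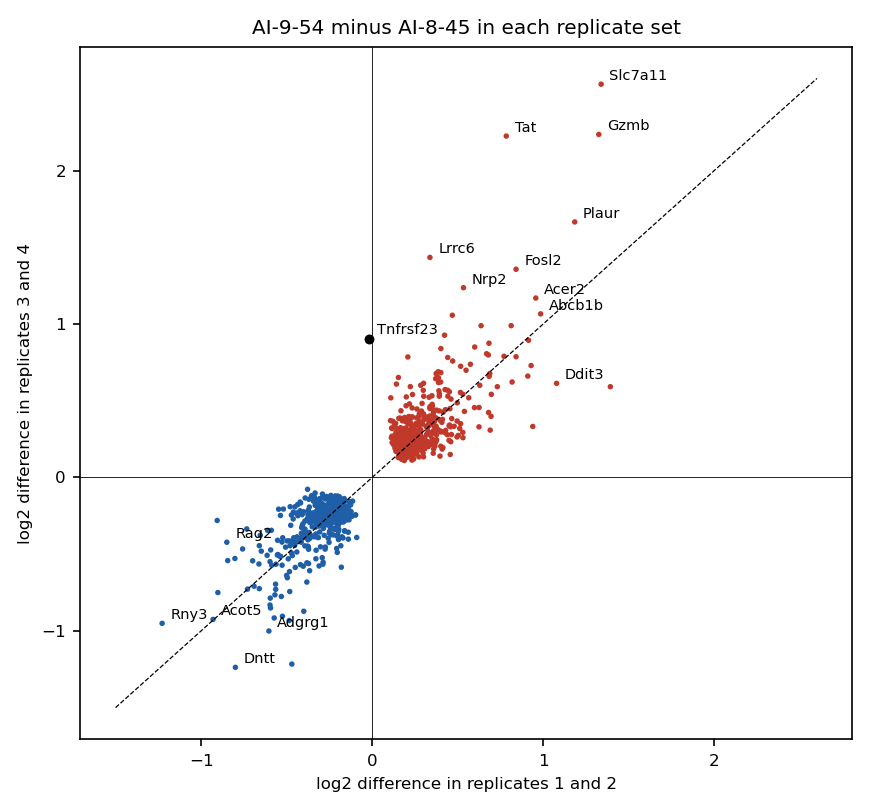
Log2 difference between AI-9-54 and AI-8-45 in replicates 1 and 2 (horizontal axis) against that in replicates 3 and 4 (vertical axis) for the 816 called genes (red higher, blue lower) and for Tnfrsf23 (black), with the line of equal differences dashed. All called genes lie in the quadrants of equal sign, which calling over both sets favours, and Slc7a11, Gzmb, Tat and Lrrc6 lie above the line.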

How the data were processed

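The deposited table holds log2 signals of 41345 probe sets on 11 single-colour Affymetrix arrays. The authors used RMA (background correction, quantile normalization and probe set summary) and Partek 6.6, per the submitters' processing notes; the genome build is not given in the sources used here. In the platform annotation 23521 probe sets carried a single gene symbol, 1814 several and 16010 none, and 23328 of the single-symbol ones were found in RefSeq by Entrez number. The probe set with the highest mean over the 11 arrays stood for each of 22180 genes, 1082 of which had several. Depth does not apply to arrays, whose number limits the precision.

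The model (R 4.3.3, limma 3.58.1, moderated by eBayes, with 7 residual degrees of freedom) was fitted to all 11 arrays, with the compound and the replicate set, without a filter or pseudocount. Tests were two-sided with Benjamini-Hochberg adjustment over all genes at 0.05. A second fit added the interaction of compound and set. On simulated data with 200 of 22180 genes changed, this comparison recovered 62% of changes of 0.25 and 100% of changes of 0.5, 1 and 2 on the log2 scale, and 7.65% of its calls were false. Figures were drawn with matplotlib 3.10.9 under Python 3.11.15.

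Genes were named by rule: per direction the 12 called genes with the largest difference whose arrays did not overlap, leaving out predicted, small RNA, olfactory, vomeronasal and receptor segment symbols; up to 4 called members per list and direction; a fixed set of leukaemia regulators; and up to 5 genes called for the interaction. Other genes were named after their values were seen, to complete a count or to show uncalled members. The comparison, the 59 lists (938 of 1042 entries measured) and the use of the replicate set were chosen with earlier results of these data known. Same-numbered replicates did not pair: the correlations of their deviations over genes were 0.0795, 0.220, 0.0699 and 0.363, and not all passed 0.1. Arrays of the same set with different numbers gave 0.492, 0.314, 0.453 and 0.175. The deviations were taken from group means, so they still held the replicate set. No fold is given where the lower group mean lay below the array medians ("dim"). Alternatives changed the arrays, the set term, scaling, filters, probe sets and prior.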

Additional observations from a re-analysis of the deposited data

Results flagged for a closer look

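In groups of 4 arrays, 1 array lay far from the other 3 in 9 of 286 groups tested (143 named genes, both compounds). Chance would mark about 1 group in 20, or 14.3 groups, if the 4 arrays were interchangeable and the genes independent. Each group mixes both replicate sets and the genes were chosen, so the number cannot be set against that. AI-8-45 replicate 3 was the array apart for 7 of the 9 groups: it read 6.34 for Lrrc6, 8.72 for Hey1, 7.74 for Klf2, 10.80 for Eif2ak3, 10.14 for Sel1l, 11.46 for Psmd1 and 12.11 for Txnip. It was the lowest of its group for each of these except Klf2, where it was the highest. AI-9-54 replicate 4 was the lowest of its group for Arrdc3 (11.30, with the others at 11.41 to 11.43), and AI-9-54 replicate 3 was the highest of its group for Vegfa (9.50, with the others at 9.29 to 9.31).

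The difference between the compounds differed between the replicate sets for 3 genes, by a test of the interaction. For Lrrc6 it was larger by 1.10 in replicates 3 and 4 (1.43) than in replicates 1 and 2 (0.34). For Slc7a11 it was larger by 1.22 (2.56 and 1.34), and for Tnfrsf23 by 0.93 (0.91 and -0.02).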

How the results depend on the processing

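Of the 816 called genes (426 higher, 390 lower), 290 were called with no replicate set in the model (157 higher, 133 lower) and 348 calls were made with the set as a random block (183 and 165). The replicate numbers did not pair the samples, and a replicate block gave 517 calls (262 and 255), of which 507 were among the 816. Replicates 1 and 2 alone gave 6 calls (5 and 1) and replicates 3 and 4 alone 143 (89 and 54). A test of the genes above the median level gave 1231 calls (644 and 587), over fewer genes tested. Leaving out 1 array gave 476 to 838 calls, with 231 to 442 higher and 207 to 396 lower. Leaving out replicate 3 of both compounds, chosen after seeing the data, gave 460 calls, 198 of them higher. The cause of these changes was not tested. The other alternatives gave 602 (median centring) to 1053 calls (intensity trend in the prior). The 3 interaction calls became 8 after median centring and 6 among genes above the median, and 1 to 4 with 1 array left out. Among the named genes, no called gene changed sign under any alternative run on its gene-level value, and 2 uncalled genes did. Single probe sets could differ: of 63 called genes with several probe sets, 52 had the same sign on all of them. The log2 difference of Lmo2 was 0.011 without AI-8-45 replicate 3 (-0.076 to 0.011 with 1 array left out), 0.0082 in replicates 1 and 2 only and 0.0043 without replicate 3 of both compounds. The log2 difference of Tnfrsf23 was -0.021 in replicates 1 and 2 only. Medians of lists that lay near 0, such as those of the heat shock and urokinase lists, also changed sign under some alternatives. With 4 arrays a group, differences of 0.25 or less are often missed, as on the simulated data.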

Other observations

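Small nucleolar RNAs, which guide the modification of ribosomal and other RNAs, were lower after AI-9-54 in both of their classes, a pattern chosen after its values were seen. Of 26 measured Snora genes, 10 were called lower and none higher (median -0.28), and of 47 Snord genes, 15 were lower and none higher (median -0.26), where 1.76% of all genes were called lower. With 1 array left out, the Snora count ran from 6 to 13 and the Snord count from 3 (without AI-8-45 replicate 1) to 16. With no replicate set in the model, 6 and 8 were called. Of 15 measured Snhg genes, which host many of these RNAs, 1 was called higher and none lower (median -0.06), and of 484 microRNA genes, 3 were higher and 3 lower. The small RNA gene Rny3 had the largest decrease of all genes (-1.09, limma adjusted p 0.0135). Whether RNA recovery of short transcripts differed between the groups was not tested.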
